A study of Homo sapiens with 4 samples.

Results

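YAP and its relative TAZ are transcriptional coactivators that work through the DNA-binding TEAD proteins, and the genes described here are 3 of these regulators (YAP1, WWTR1 and TEAD1) with 7 of their well-known target genes (CCN1, CCN2, ANKRD1, THBS1, AXL, AMOTL2 and LATS2). These 10 genes were taken by name from a table of 36525 Ensembl genes, and all 10 were found by their identifiers and passed the filter on low values. The cells were LM2, a lung-metastatic line derived from MDA-MB-231, a mesenchymal human breast cancer line; the labels call LM2 clonal, so both groups stand for the progeny of a single line. The 2 hnRNPM knockdown libraries came from LM2 cells with the RNA-binding protein hnRNPM silenced, by an shRNA according to the growth protocol and by an siRNA according to the treatment label. The 2 control libraries came from LM2 cells given a control treatment that the labels do not describe further. Both groups were grown in the same serum-containing medium and collected 48 h after plating.

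In the Hippo pathway, upstream kinases activate LATS1 and LATS2, which phosphorylate YAP and TAZ and so keep them out of the nucleus. When the LATS kinases are inactive, for example in spread cells on a stiff matrix, YAP and TAZ enter the nucleus and, on TEAD proteins, switch on genes for secreted matrix proteins, for growth signalling and for Hippo inhibitors that feed back on the pathway. In MDA-MB-231 cells the pathway is known to be weakly restrained, because the line carries a damaged NF2 gene, which codes for an upstream activator of the LATS kinases. The values below are transcript levels; the phosphorylation and location of YAP, on which its activity rests, were not measured.

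Levels are RPKM, reads scaled to transcript length and to a read total, so they can be compared between genes. Estimated reads per library were 16.5 M and 18.3 M in the knockdown and 23.0 M and 26.6 M in the control libraries, and the 10 genes had between 1131 and 68800 estimated reads per library. HNRNPM was at 11.5 and 12.95 RPKM in the knockdown libraries, against 88.6 and 102 RPKM in the control libraries. The mesenchymal marker VIM lay between 562 and 760 RPKM in the 4 libraries. Of 5 such markers VIM, CD44 and FN1 were not called, CAV1 was called higher (log2 fold change 0.59) and LAMB3 lower (-0.73). The 6 epithelial or luminal markers summed to 11.6 and 12.8 RPKM in the knockdown libraries, against 7.50 and 8.07 RPKM in the control libraries, with PGR listed at 0 in all 4 and ESR1 at no more than 0.0322 RPKM. KRT8 made up most of that difference, at 7.50 and 8.01 RPKM in the knockdown libraries, against 3.86 and 4.55 RPKM in the control libraries. CDH1, below the filter, was at 0.717 and 0.99 RPKM in the knockdown libraries, against 0.0774 and 0.0629 RPKM in the control libraries. EPCAM and GATA3 were not called. The fibroblast marker COL3A1 was at 0.218 and 0.247 RPKM in the knockdown libraries, against 0.007 and 0.0175 RPKM in the control libraries. The other, PDGFRA, stayed at or below 0.0104 RPKM in each library. The part of these epithelial and fibroblast marker differences in the results below was not tested. In bulk RNA a change in the share of cells and one in RNA per cell cannot be told apart. The leukocyte markers PTPRC and CD3E together stayed at or below 0.0224 RPKM in each library, and the endothelial marker CDH5 at or below 0.0451 RPKM. Replicate 2 was higher than replicate 1 in each group for most genes, with a median ratio of 1.11 in the knockdown and 1.15 in the control libraries. In the low values, the step made by 1 read had the same size in the 2 libraries of either group, which means that the authors' scaling did not follow the depth of the single library. Changes are therefore given on the deposited scale, which is the main result, and after median-ratio scaling, which removes such offsets. The labels do not state whether replicates are separate cultures, so the spread between these libraries may be technical. On the deposited scale p-values rest on a variance shared by genes of like level, not on the spread of each gene. The median SE was 0.175 on that scale and 0.0544 after median-ratio scaling.

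Among the 10 genes, ANKRD1, THBS1 and CCN1 rose after knockdown, WWTR1 fell and the other 6 were not called on the deposited scale (limma, Benjamini-Hochberg adjusted p over 13627 genes, threshold 0.05). Of all genes tested, 14.7% were called higher and 21.8% lower, so the 1 lower call of 10 is no more than the background, and 10 genes are few for reading the 3 higher calls. After median-ratio scaling 7 of the 10 were called higher and 2 lower, against 31.1% and 30.0% of all genes. Higher calls made up 40.3% of all calls on the deposited scale and 50.9% after that scaling. The median log2 fold change was 0.19 over the 10 genes and -0.07 over all genes. On the deposited scale the knockdown and control values did not overlap for 7 of the 10 genes, against 66.8% of all genes tested.

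**Figure D1:**
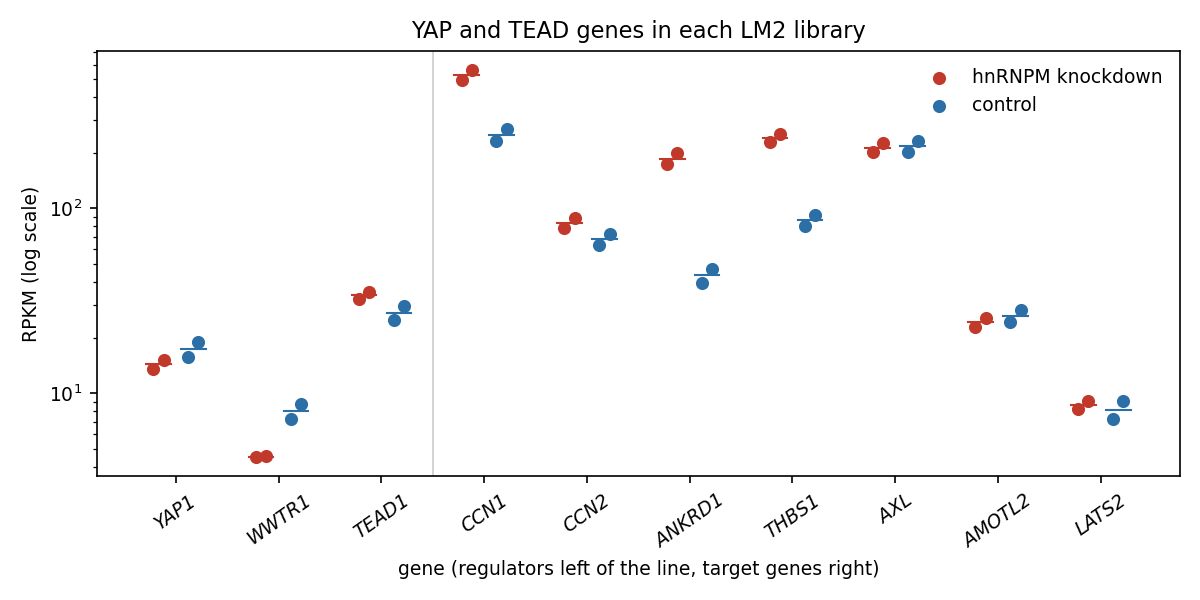
RPKM on a log axis for each of the 10 genes, with 1 point per library and a short bar at the mean of each group (n = 2), hnRNPM knockdown left of control. The groups are far apart for ANKRD1 (173 to 199 against 39.6 to 47.3 RPKM), THBS1 and CCN1, while those for AXL, AMOTL2 and LATS2 overlap.

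Of the coactivators, YAP1 held the higher level and WWTR1, the gene of TAZ, was the one that fell. WWTR1 was at 4.53 and 4.57 RPKM in the knockdown libraries, against 7.30 and 8.77 RPKM in the control libraries. Both knockdown values lay below both control values. Its means were 4.55 ± 0.0283 and 8.03 ± 1.04 RPKM (SD, n = 2), which gave a WWTR1 log2 fold change of -0.75 ± 0.18 (SE, n = 2 each; limma adjusted p = 0.000134), or -0.67 after median-ratio scaling (limma adjusted p = 0.00228). Without knockdown replicate 1 or 2, WWTR1 kept its direction and was no longer called (limma adjusted p = 0.0631 and 0.0541). The antisense gene WWTR1-AS1 shares 795 exon bases with it and was at 1.36 and 1.40 RPKM in the knockdown libraries, against 3.0 and 4.03 RPKM in the control libraries. No source used here states that counting was stranded, so reads of such a pair cannot be told apart.

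YAP1 was at 13.5 and 15.2 RPKM in the knockdown libraries, against 15.8 and 18.9 RPKM in the control libraries. The groups did not overlap, but the gap between them was smaller than the difference between replicates. The log2 fold change was -0.26 with a 95% interval of -0.60 to 0.08 (limma adjusted p = 0.245), which holds both a small fall and no change. After median-ratio scaling it was -0.18 and called lower (limma adjusted p = 0.0112). YAP1 shares 628 exon bases with the antisense gene AP000942.2, which was at 51.4 and 57.9 RPKM in the knockdown libraries, against 54.4 and 61.8 RPKM in the control libraries, a higher level than that of YAP1 itself. Within a library the ratio of YAP1 to WWTR1, which a depth difference cannot move, was 2.99 and 3.31 in the knockdown libraries, against 2.16 and 2.15 in the control libraries. The balance of the transcripts thus lay further toward YAP1 in both knockdown libraries.

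TEAD1, which codes for a TEAD family DNA-binding partner of YAP and TAZ, was at 32.2 and 35.4 RPKM in the knockdown libraries, against 25.0 and 29.6 RPKM in the control libraries. Both knockdown values were above both control values. The log2 fold change of 0.31 ± 0.17 (SE) was not called (limma adjusted p = 0.155), and after median-ratio scaling it was 0.39 and called higher (limma adjusted p = 0.00103). TEAD3, the most abundant of the family, was at 48.1 and 53.1 RPKM in the knockdown libraries, against 70.9 and 82.0 RPKM in the control libraries (limma adjusted p = 0.00276, log2 fold change -0.59). TEAD3 was not called when any 1 of the 4 libraries was left out (limma adjusted p from 0.0561 to 0.310). TEAD2, with means of 3.91 and 4.46 RPKM in knockdown and control, and TEAD4, with means of 8.39 and 9.49 RPKM, were not called.

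Set against the summed level of the TEAD genes in the same library, TEAD1 made up 35.1% and 34.9% in the knockdown libraries, against 23.0% and 23.3% in the control libraries. TEAD3 made up 52.4% and 52.2% in the knockdown libraries, against 65.3% and 64.7% in the control libraries. These shares differed between replicates by less than 1 percentage point and between groups by more than 10, and they do not depend on library scaling. They show that TEAD1 and TEAD3 changed unequally, not which of the pair changed. The summed TEAD level itself was 91.9 and 102 RPKM in the knockdown libraries, against 109 and 127 RPKM in the control libraries.

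The target genes divided into a group that rose 2-fold or more and a group with smaller differences. ANKRD1 codes for a muscle ankyrin repeat protein that acts in the nucleus and at the sarcomere in muscle cells and is among the most used readouts of YAP activity. It was at 173 and 199 RPKM in the knockdown libraries, against 39.6 and 47.3 RPKM in the control libraries. Its means of 186 ± 17.9 and 43.5 ± 5.42 RPKM (SD, n = 2) are 4.28-fold apart, a log2 fold change of 2.09 ± 0.17 (SE; limma adjusted p = 4.23e-32). Only 40 of the 13627 genes tested had a larger log2 fold change, or 0.294%. By level it was the fourth of the 10 genes in the knockdown and the fifth in the control libraries.

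THBS1 codes for thrombospondin, a secreted matrix glycoprotein that can activate latent TGF-β. It was at 228 and 253 RPKM in the knockdown libraries, against 80.3 and 92.4 RPKM in the control libraries, and no value of either group came near the other group. This is a log2 fold change of 1.47 ± 0.17 (SE; limma adjusted p = 1.02e-16), the 146th largest of all genes tested. THBS1 shares 448 exon bases with FSIP1 on the opposite strand, which was at no more than 0.126 RPKM in any library. CCN1, a secreted matricellular protein that binds integrins, was at 497 and 560 RPKM in the knockdown libraries, against 230 and 269 RPKM in the control libraries. The difference amounted to 1.08 ± 0.16 on the log2 scale (SE; limma adjusted p = 5.87e-10), and CCN1 held the highest level of the 10 genes in both groups.

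ANKRD1, THBS1 and CCN1 remained called higher when any 1 library was left out (limma adjusted p from 1.06e-09 to 0.0199 over the 3 genes). Without a filter on low values ANKRD1 was called (limma adjusted p = 0.0477), and THBS1 and CCN1 were not (limma adjusted p = 0.0527 and 0.0735); HNRNPM itself reached only 0.0445 in that fit.

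CCN2, formerly CTGF, is a close relative of CCN1 and the most used YAP target beside it. It was at 78.7 and 89.1 RPKM in the knockdown libraries, against 63.1 and 73.1 RPKM in the control libraries. The groups did not overlap, and the log2 fold change of 0.30 with a 95% interval of -0.03 to 0.63 was not called (limma adjusted p = 0.160). After median-ratio scaling it was 0.38 ± 0.02 (SE) and called higher (limma adjusted p = 0.00076). CCN2 shares 195 exon bases with the antisense gene AL133346.1, which was at 10.1 to 18.0 RPKM in the 4 libraries. The ratio of CCN1 to CCN2 within a library was 6.32 and 6.28 in the knockdown libraries, against 3.65 and 3.68 in the control libraries. The ratios of a group differed by far less than those of the groups, so the relatives changed unequally whatever the scaling.

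AXL, AMOTL2 and LATS2 overlapped between the groups on the deposited scale. After median-ratio scaling none of them did, with AXL and LATS2 higher and AMOTL2 lower in the knockdown libraries. AXL, a receptor tyrosine kinase linked to invasion and drug tolerance in mesenchymal cancers, was at 202 and 225 RPKM in the knockdown libraries, against 202 and 232 RPKM in the control libraries. Its log2 fold change was -0.02 with a 95% interval of -0.35 to 0.30 (limma adjusted p = 0.934). After median-ratio scaling the sign turned to 0.06 with an interval of 0.03 to 0.09, which was called higher (limma adjusted p = 0.0151). Either interval lies below the changes of the 3 genes that rose. AMOTL2 codes for an angiomotin family protein that binds YAP and holds it at junctions. It was at 23.0 and 25.7 RPKM in the knockdown libraries, against 24.3 and 28.1 RPKM in the control libraries, and was called neither on the deposited scale (log2 fold change -0.10, 95% interval -0.44 to 0.24, limma adjusted p = 0.689) nor after median-ratio scaling (-0.02, limma adjusted p = 0.386). The processed pseudogene RPL39P5 lies within an exon of AMOTL2 over 187 bases and was at 31.4 to 36.1 RPKM. LATS2, the kinase that phosphorylates YAP and TAZ and is itself induced by them, was at 8.25 and 9.13 RPKM in the knockdown libraries, against 7.30 and 9.05 RPKM in the control libraries. Its log2 fold change was 0.09 with a 95% interval of -0.25 to 0.43 (limma adjusted p = 0.727), and 0.17 after median-ratio scaling (limma adjusted p = 0.0420).

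**Figure D2:**
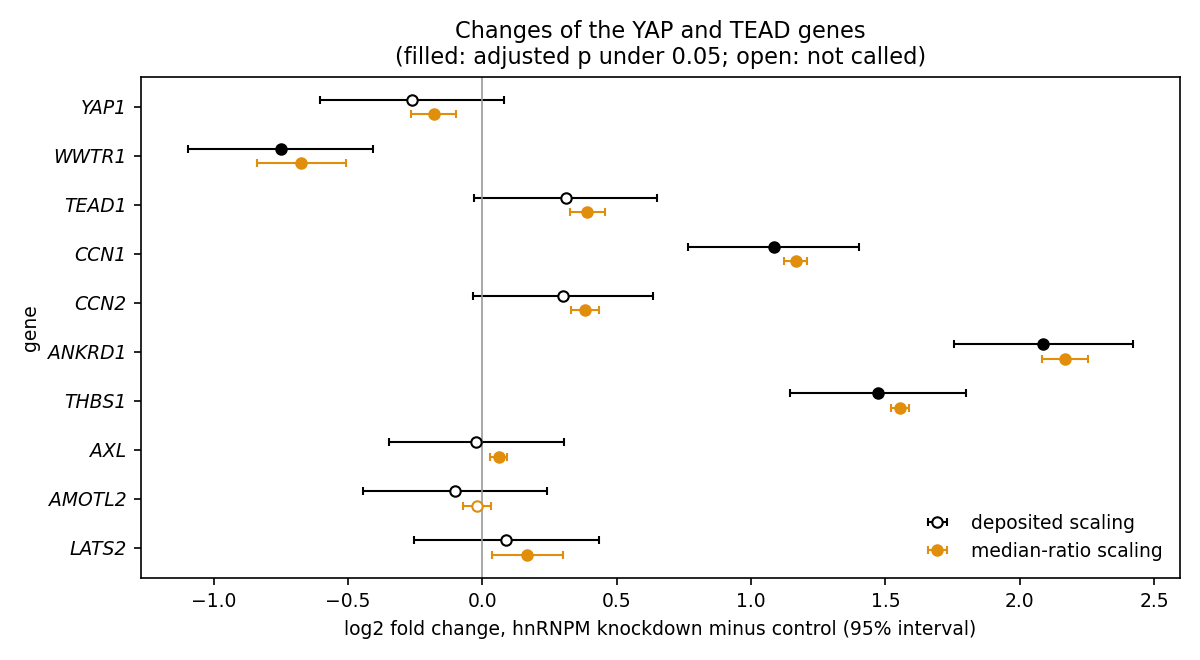
Log2 fold change of each of the 10 genes, hnRNPM knockdown minus control, with its 95% interval on the deposited scale (black) and after median-ratio scaling (orange); filled points were called. ANKRD1 (2.09), THBS1 (1.47) and CCN1 (1.08) stand to the right and WWTR1 (-0.75) to the left under both scalings, and the intervals are narrower after scaling.

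By level, the order in the knockdown libraries was CCN1, THBS1, AXL, ANKRD1, CCN2, TEAD1, AMOTL2, YAP1, LATS2 and WWTR1. In the control libraries it was CCN1, AXL, THBS1, CCN2, ANKRD1, TEAD1, AMOTL2, YAP1, LATS2 and WWTR1. Of the neighbours in the control order, CCN1 and AXL, TEAD1 and AMOTL2, and LATS2 and WWTR1 overlapped in their values. Only 0.316% of the genes tested had a higher mean than CCN1 in the control libraries, and 0.360% a higher mean than AXL.

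Promoter sequence was at hand from RefSeq (build GRCh38.p14, not the hg19 build of the deposited values) for 8 of the 10 genes, in 11 windows of 300 bases that run from 250 bases before to 50 bases after an annotated transcript start. CCN1 and TEAD1 were not among them. The core TEAD motif, GGAATG or its reverse complement CATTCC, was found in 7 of the 11 windows and for 7 of the 8 genes, WWTR1 being the exception; 14.0% of all 35116 windows hold it. Positions are those of the first base of the motif, counted from the transcript start, with the bases before it negative. CCN2 had 3 forward matches, at -169, -104 and -95, and 0.128% of all windows hold 3 or more. ANKRD1 had 2 forward matches, at -220 and -128, and 1.37% of all windows hold 2 or more. THBS1 had 1 forward match at -46 and AMOTL2 1 reverse match at -69. The pattern TGANTCA, a loose form of the AP-1 site that allows any middle base, was in the ANKRD1 window alone, against 7.71% of all windows. The ANKRD1 match reads TGATTCA, while the AP-1 site itself has C or G in the middle, so it is not a full AP-1 site. A match describes the letters only; binding was not measured. The windows of the 2 risers with sequence, of CCN2 with its cluster of matches and of AMOTL2, which was not called, are shown 5′ to 3′ on the strand of the gene, with the TEAD motif in capitals.
ANKRD1, chr10:90921038-90921337, minus strand: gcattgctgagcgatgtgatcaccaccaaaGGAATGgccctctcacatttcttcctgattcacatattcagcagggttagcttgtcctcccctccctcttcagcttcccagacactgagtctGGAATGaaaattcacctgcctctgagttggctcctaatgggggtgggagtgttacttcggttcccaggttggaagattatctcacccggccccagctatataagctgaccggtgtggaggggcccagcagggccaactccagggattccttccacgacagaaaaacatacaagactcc
THBS1, chr15:39580829-39581128, plus strand: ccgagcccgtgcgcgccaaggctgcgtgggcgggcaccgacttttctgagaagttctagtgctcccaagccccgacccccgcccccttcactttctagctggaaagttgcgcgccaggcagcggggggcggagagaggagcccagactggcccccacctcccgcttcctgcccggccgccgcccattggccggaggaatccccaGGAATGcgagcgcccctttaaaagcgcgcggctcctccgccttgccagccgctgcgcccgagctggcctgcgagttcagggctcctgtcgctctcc
CCN2, chr6:131951323-131951622, minus strand: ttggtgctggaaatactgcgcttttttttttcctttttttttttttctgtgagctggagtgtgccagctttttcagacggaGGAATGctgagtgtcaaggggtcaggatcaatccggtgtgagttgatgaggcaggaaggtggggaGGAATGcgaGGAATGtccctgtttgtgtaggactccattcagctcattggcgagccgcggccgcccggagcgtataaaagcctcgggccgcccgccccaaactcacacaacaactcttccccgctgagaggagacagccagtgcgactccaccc
AMOTL2 (the window with a match), chr3:134374398-134374697, minus strand: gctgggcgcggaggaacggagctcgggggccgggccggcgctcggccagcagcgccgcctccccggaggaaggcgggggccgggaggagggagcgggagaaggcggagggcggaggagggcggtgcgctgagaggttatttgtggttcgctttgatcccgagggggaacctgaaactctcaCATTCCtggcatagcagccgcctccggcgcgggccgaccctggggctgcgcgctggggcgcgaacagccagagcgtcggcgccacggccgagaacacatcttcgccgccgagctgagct

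CCN2, with 3 matches, had a log2 fold change of 0.30, ANKRD1, with 2, one of 2.09, and THBS1, with 1, one of 1.47. A relation between matches and change was not tested. AMOTL2, YAP1, LATS2 and a second start of AXL also had 1 match each.

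**Figure D3:**
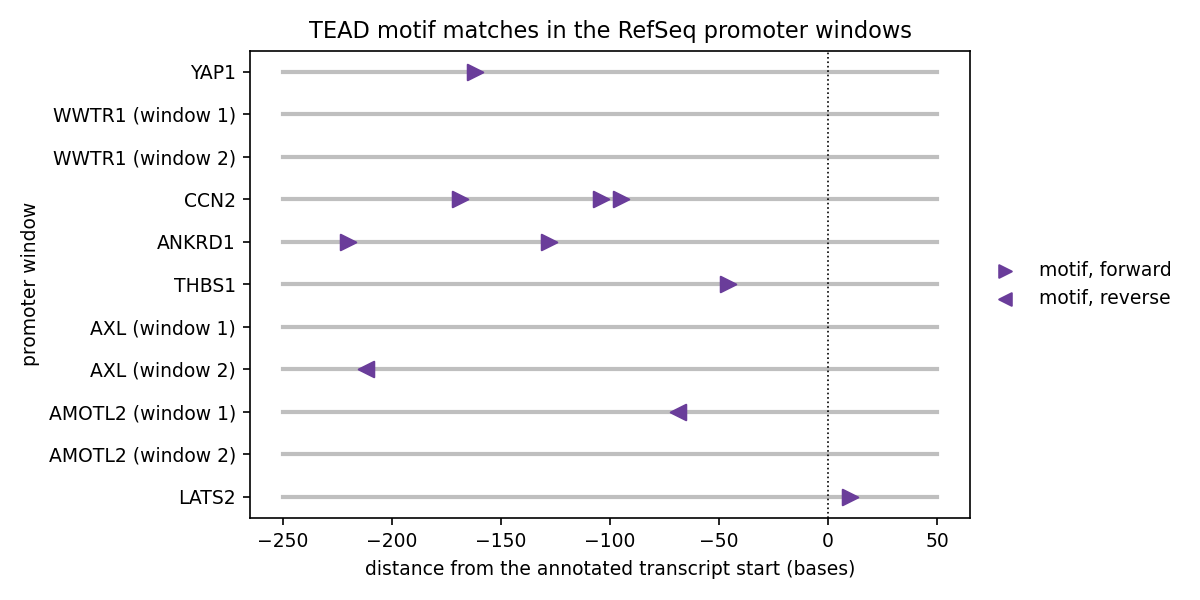
Matches to the TEAD motif (triangles, pointing right for forward and left for reverse) along the 11 promoter windows, by distance in bases from the transcript start (dotted line). CCN2 has 3 matches and ANKRD1 2, all before the start; the match of LATS2 lies after its start, and the windows of WWTR1 have none.

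Other genes of a widely used YAP/TAZ activity signature moved in both directions. Of 16 that are not among the 10 genes, all were tested; 5 were higher, 4 lower and 7 not called, with a median log2 fold change of 0.02 against -0.07 over all genes. The shares over all genes were 14.7% higher and 21.8% lower, and with 1 library left out the list held 3 higher and 1 to 2 lower calls. After median-ratio scaling 8 were higher and 4 lower, beside 31.1% and 30.0% of all genes. F3, the tissue factor that starts blood clotting, was at 242 and 271 RPKM in the knockdown libraries, against 56.3 and 66.4 RPKM in the control libraries. Its log2 fold change of 2.06 ± 0.17 (SE; limma adjusted p = 7.71e-32) was close to that of ANKRD1. The growth factor gene TGFB2 (31.3 and 13.2 RPKM as knockdown and control means, log2 fold change 1.22) and the AMPK-related kinase gene NUAK2 (5.95 and 2.64 RPKM, 1.04) also rose. ASAP1, which codes for a regulator of Arf GTPases, fell to 4.75 RPKM, against 9.80 RPKM in the control libraries (-0.97). The other calls, named after their values were seen, were GADD45A (0.56) and CRIM1 (0.47) upward and FOXF2 (-0.57), NT5E (-0.52) and IGFBP3 (-0.42) downward. When any 1 library was left out, GADD45A, CRIM1, NT5E and IGFBP3 were not called, and FOXF2 was called in 1 of the 4 fits.

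Of 24 further genes reported as YAP or TAZ targets in various cells, 20 were tested; 8 were higher, 6 lower and 6 not called, with a median log2 fold change of 0.25, beside 14.7% higher, 21.8% lower and a median of -0.07 over all genes. Leaving out 1 library gave 2 to 7 higher and 0 to 4 lower calls. The 4 genes with the smallest p rose. INHBA, the activin A subunit gene, was at 1.82 and 2.36 RPKM in the knockdown libraries, against 0.422 and 0.396 RPKM in the control libraries. The INHBA log2 fold change was 1.503, or 2.095 and 1.128 with a pseudocount of 0.1 and 1, and thus depends on the pseudocount. With a control mean of 0.409 RPKM, INHBA passed the filter of 1 only through its knockdown values. It was tested in 3 of the 4 fits that left out a library. The filter thus favoured a rise in this gene, which is among the 8 called higher. By the ratio of mean RPKM, EREG, a ligand of the EGF receptor, rose 2.22-fold, the collagen gene COL8A1 1.996-fold and the Wnt antagonist gene DKK1 1.85-fold, to 157 ± 13.7 RPKM against 84.8 ± 9.79 RPKM in the control libraries (SD, n = 2). DKK1 was not called without knockdown replicate 2 (limma adjusted p = 0.0643). The genes called lower included MYC (-0.64), BIRC5 (-0.61) and CCND1 (-0.48), named after their values were seen. With 1 library left out, MYC was called in 1 of the 4 fits, and BIRC5 and CCND1 in 0.

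Of the vestigial-like proteins, which bind TEAD proteins in place of YAP, VGLL3 was at 3.62 and 3.94 RPKM in the knockdown libraries, against 1.02 and 0.959 RPKM in the control libraries. The change of 1.52 ± 0.19 on the log2 scale was called higher (SE; limma adjusted p = 1.64e-14). It ran from 1.26 to 1.83 over the alternatives that tested VGLL3, and a filter of 5 RPKM left the gene out. The control mean of 0.989 RPKM was under the filter of 1, which VGLL3 passed through its knockdown values. VGLL4, which represses TEAD targets, overlapped between the groups at 6.29 and 7.32 RPKM in the knockdown libraries, against 5.65 and 6.66 RPKM in the control libraries (limma adjusted p = 0.583, log2 fold change 0.13). VGLL2 had 0.408 and 0.363 RPKM in the knockdown libraries, against 0.193 and 0.0963 RPKM in the control libraries, below the filter, and VGLL1 is listed at 0 in all 4 libraries. VGLL3 was called higher under each of the 12 alternatives that tested it. Of the 7 genes in the list of other TEAD and VGLL genes, 5 were tested, of which 1 was higher, 1 lower and 3 not called, beside 14.7% higher and 21.8% lower over all genes.

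Upstream, 18 Hippo kinases and scaffolds other than LATS2 were tested, of 22 listed; 4 were higher, 1 lower and 13 not called, with a median log2 fold change of 0.12, beside 14.7% higher and 21.8% lower over all genes. Of those not tested, NF2 and the kinase gene STK4 have no values in the data, which says nothing of their level. WWC2 and WWC1, scaffolds that help to activate the LATS kinases, rose 2.11-fold (to 13.2 RPKM, against 6.26 RPKM in the control libraries) and 1.94-fold (to 7.94 RPKM, against 4.09 RPKM). MAP4K3, a kinase that can act on LATS, rose 1.95-fold, and LATS1, named after its values were seen, was at a mean of 5.41 RPKM in the knockdown and 3.38 RPKM in the control libraries (log2 fold change 0.61). LATS1 was called in 1 of the 4 fits that left out a library. STK38L, a kinase related to LATS, was the one that fell, to 0.721 and 0.906 RPKM in the knockdown libraries, against 2.11 and 2.501 RPKM in the control libraries (-1.10). STK38L passed the filter only through its control values. After median-ratio scaling 10 were higher and 2 lower, beside 31.1% and 30.0% of all genes.

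Of 15 genes of the STRIPAK complex, a phosphatase assembly that opposes the Hippo kinases, 2 were higher, 5 lower and 8 not called, beside 14.7% and 21.8% of all genes called in these directions. With 1 library left out, 0 to 1 were higher and 0 to 4 lower. The median log2 fold change was -0.06, which turned to 0.01 after median-ratio scaling. STK24, a kinase of the complex, was at 5.29 and 6.31 RPKM in the knockdown libraries, against 10.1 and 11.9 RPKM in the control libraries (log2 fold change -0.87), STRIP2 had a change of -0.68, STK26 of -0.53 and the striatin gene STRN3 of 0.54. STK24 and STRIP2 were not called without knockdown replicate 1 (limma adjusted p = 0.0702 and 0.107), and STK26 and STRN3 were called in 1 of the 4 fits that left out a library. STK24 shares exon sequence with FARP1 on the opposite strand, which was at 3.52 and 3.55 RPKM in the knockdown libraries, against 7.43 and 8.92 RPKM in the control libraries. WWC2 likewise overlaps CLDN22, which was at 1.79 and 2.13 RPKM in the knockdown libraries, against 0.820 and 1.04 RPKM in the control libraries.

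Among 13 tested genes, of 18 listed, whose proteins retain YAP outside the nucleus or act at junctions, 4 were higher, 2 lower and 7 not called, with a median log2 fold change of 0.07, beside 14.7% higher and 21.8% lower over all genes. With 1 library left out, 1 to 3 were higher and 2 lower. The 2 that fell were AMOTL1 and SFN. AMOTL1, the close relative of AMOTL2, was at 4.58 and 5.16 RPKM in the knockdown libraries, against 12.1 and 13.8 RPKM in the control libraries (-1.32 ± 0.18, SE; limma adjusted p = 1.71e-12). SFN, stratifin, was at 25.1 and 25.3 RPKM in the knockdown libraries, against 53.4 and 60.7 RPKM in the control libraries (-1.16 ± 0.17, SE; limma adjusted p = 5.16e-10). The 95% interval of AMOTL1, -1.66 to -0.98, and that of AMOTL2, -0.44 to 0.24, do not overlap; the difference was not tested. The giant protocadherin genes FAT4 (0.86) and FAT1 (0.65) rose, FAT1 being called in 1 of the 4 fits that left out a library.

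SRF and its actin-sensed MRTF coactivators drive cytoskeletal genes. A list of these genes, which also holds the regulators themselves, was measured beside the YAP targets. Of 17 tested, from 23 listed, 2 were higher, 6 lower and 9 not called, with a median log2 fold change of -0.32, beside 14.7% higher, 21.8% lower and a median of -0.07 over all genes. After median-ratio scaling 5 were higher and 11 lower (median -0.24), beside 31.1% and 30.0% of all genes. With 1 library left out, 1 to 2 were higher and 3 to 6 lower. The calponin gene CNN2 was at 97.2 and 109 RPKM in the knockdown libraries, against 46.7 and 51.7 RPKM in the control libraries (1.06). The focal adhesion and LIM domain genes FBLIM1 (-1.24), FHL1 (-1.09) and TGFB1I1 (-1.01) fell. FBLIM1, with a knockdown mean of 0.643 RPKM, passed the filter only through its control values. The lower calls also include the coactivator gene MRTFB (-0.57, limma adjusted p = 0.00812), named after its values were seen, while SRF was not called. Smooth muscle markers in this list were low and differed in direction. TAGLN was between 4.07 and 5.16 RPKM in the 4 libraries and was not called, and the others lay below the filter. CNN1 was at 0.952 and 0.846 RPKM in the knockdown libraries, against 0.162 and 0.137 RPKM in the control libraries. ACTG2 was at 0.0708 and 0.124 RPKM in the knockdown libraries, against 1.11 and 1.34 RPKM in the control libraries. ACTA2 was at 0.178 and 0.167 RPKM in the knockdown libraries, against 0.292 and 0.434 RPKM in the control libraries.

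**Figure D4:**
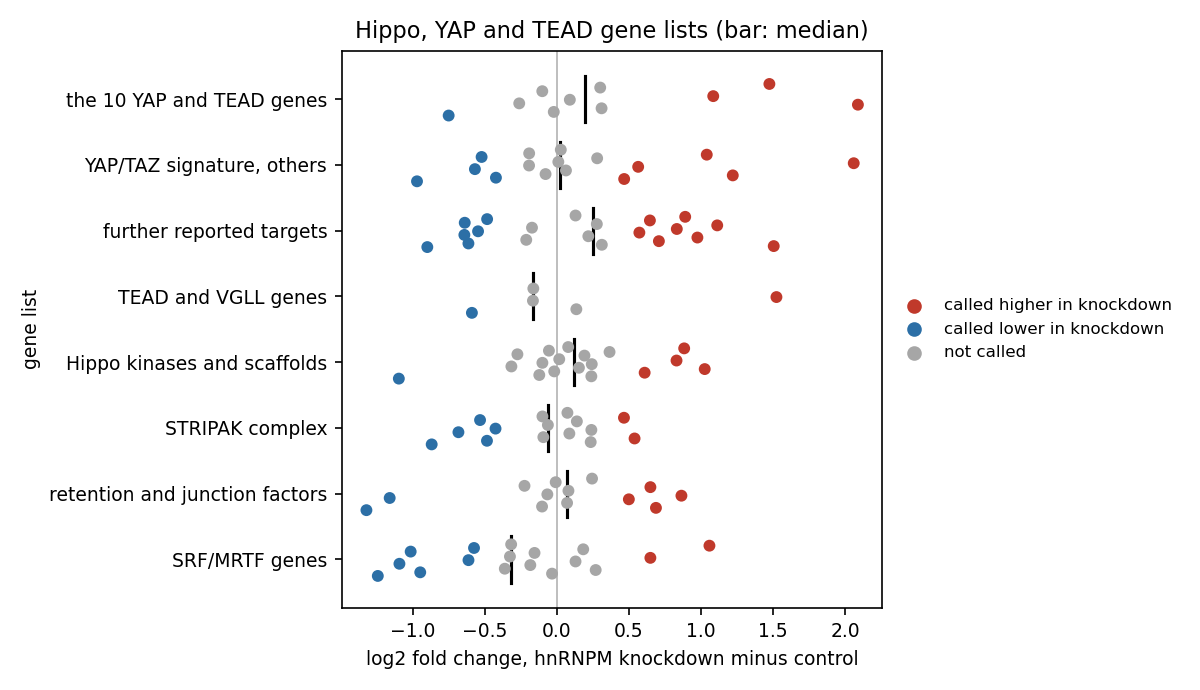
Log2 fold changes, hnRNPM knockdown minus control, of the tested genes in 8 lists (points, coloured by call) with the median of each list as a bar. The lists hold calls in both directions, and their medians lie between -0.32 (SRF/MRTF genes) and 0.25 (further reported targets).

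The relatives of the targets were mostly at low levels. Of the other CCN genes, CCN3 was at 3.36 and 3.54 RPKM in the knockdown libraries, against 1.73 and 2.12 RPKM in the control libraries (limma adjusted p = 0.000575, log2 fold change 0.71), and was called in 2 of the 4 fits that left out a library. CCN6 was at 0.0948 RPKM in both knockdown libraries, against 0.186 and 0.194 RPKM in the control libraries, and CCN4 is listed at 0 in both knockdown libraries, against 0.0513 and 0.0898 RPKM in the control libraries. The other thrombospondin genes were far below THBS1: THBS3 was at 1.12 and 1.23 RPKM in the knockdown libraries, against 0.562 and 0.604 RPKM in the control libraries, and THBS2, THBS4 and COMP stayed at or below 0.0948 RPKM. GAS6, the ligand of AXL, was at 22.5 and 25.3 RPKM in the knockdown libraries, against 32.6 and 37.8 RPKM in the control libraries (limma adjusted p = 0.00626, log2 fold change -0.55). GAS6 was not called when any 1 library was left out (limma adjusted p from 0.0648 to 0.377). The AXL relatives TYRO3 (0.652 and 0.892 RPKM as knockdown and control means) and MERTK (0.471 and 1.11 RPKM), and the ligand gene PROS1 (0.850 and 0.334 RPKM), lay below the filter. Of these family lists, 1 CCN gene, 1 gene of the AXL group and 0 thrombospondin genes passed the filter.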

How the data were processed

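RNA of LM2 cells was sequenced in 2 hnRNPM knockdown and 2 control libraries, grouped by their titles. The authors deposited RPKM values per Ensembl gene, 1 column per library (0 columns were unused). Bowtie 0.12.7 and hg19 are named per the submitters' processing notes; the counting program, strand use and handling of multiple matches were not found in the labels. Symbols came from a current table (32172 genes) or GENCODE 29 (136); 4217 genes had none. The table holds 0 genes of chromosomes 20, 21 and 22, and listed genes there were not analysed here. These were STK4, NF2, YWHAB, YWHAH, CSNK1E, MRTFA, MYL9, MYH9 and CCN5.

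RPKM are not counts, so no count test was run. Read totals implied by the steps of low values and GENCODE 29 exon lengths were 29.7 M for both knockdown and 41.9 M for both control libraries, which made 84.9% to 85.7% of the low values whole to within 0.1 read. Depths are estimates from these. The mean chi-square per gene was 1.32 between the knockdown and 1.33 between the control libraries, close to counting error, and the libraries were kept as 2 samples.

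Log2(RPKM + 0.5) was fitted with limma 3.58.1 in R 4.3.3 on group alone, with a variance trend, for genes whose RPKM averaged 1 or more, with Benjamini-Hochberg adjustment over all of them; the method was tested on simulated data. This scale understates changes of low genes. On the deposited scale limma found no spread of variances beyond its trend, so p-values there, also the very small ones, rest on a shared variance. This did not hold after median-ratio scaling. No exact permutation test was run, because 2 against 2 libraries allow no two-sided p under 0.333. The genes described and the lists were chosen with earlier results of these data known. All 10 genes are named, with every gene of the TEAD/VGLL, CCN, AXL and THBS lists in the table and the 4 smallest p of each longer list; any further name was picked with its values in view. Alternatives were other pseudocounts, filters, scalings and variance models, a replicate block and leaving out each library.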

Additional observations from a re-analysis of the deposited data

How the results depend on the processing

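Of the 10 genes, 3 were called higher and 1 lower on the deposited scale, against 7 and 2 after median-ratio scaling, 5 and 3 with equal RPKM sums, 5 and 2 with a replicate block, 6 and 2 with a replicate block and median-ratio scaling, and 1 and 0 without a filter; leaving out 1 library gave 3 higher throughout and 0 to 1 lower. Whether same-numbered libraries form pairs is not known. Their deviations from the group means correlated at 0.0307 across genes, which with 2 libraries per group cannot decide it. Over all genes, 2000 were higher and 2964 lower, against 4235 and 4083 after median-ratio scaling, 3696 and 4638 with equal sums, 3109 and 4318 with the block, 3914 and 3718 with the block and median-ratio scaling, 262 and 255 without a filter, 1047 and 1321 among genes averaging 5 RPKM or more, and 693 to 1337 higher and 1100 to 1907 lower without 1 library. The related lists held 27 higher and 26 lower calls of 105 tested genes, beside 14.7% and 21.8% of all genes. After median-ratio scaling they held 50 higher and 34 lower, beside 31.1% and 30.0% of all genes. The counts were 46 and 40 with equal sums, 39 and 36 with the block, and 45 and 34 with the block and median-ratio scaling. They were 3 and 2 without a filter, and 17 and 16 among genes averaging 5 RPKM or more. Leaving out 1 library gave 12 to 22 higher and 7 to 19 lower. The AXL log2 fold change turned its sign, to 0.0603 with median-ratio scaling (also with the block) and 0.000342 with equal sums, and ranged from -0.1204 to 0.0769 without 1 library; AMOTL2 ranged there from -0.2046 to 0.00192 and LATS2 from -0.0564 to 0.2357. Of 532 values of 42 named genes under 13 alternatives, 52 lost their call, 28 of them without a filter, and 20 gained one; the cause was not tested. The 10 genes had at least 1131 estimated reads in each library. Other named genes had fewer, such as FBLIM1 with 78 and 102 in the knockdown libraries.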
